A study of Mus musculus with 9 samples.

Results

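Tc22 cells and Tc0 cells given coenzyme A (Tc0 + CoA), the 2 groups of mouse CD8+ T cells in which transcripts of interleukin-22 (IL-22) were raised, were set together against untreated Tc0 cells. The question was which genes both groups share in their difference from Tc0. Their 6 libraries were compared with the 3 Tc0 libraries, so that all 9 libraries of the series entered. A shared programme was taken as the genes that passed the test on the mean of both groups and moved the same way against Tc0 in both groups in every mouse. It held 623 of 15348 genes tested. Since these values chose the genes, their direction is a description and supports nothing further.

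All cells were CD8+ T cells of C57BL/6 mice, activated over 3 days with CoA or vehicle, and their total RNA was sequenced after removal of ribosomal RNA. The labels give Tc0 and Tc22 cells no agent and Tc0 + CoA cells the agent CoA. Neither the CoA dose, nor the culture conditions that make Tc22 cells, nor the age and sex of the mice is given in the sources used here. Each of 3 mice, numbered 715, 725 and 728, gave 1 library of every group. Where 3 values stand together below, they follow that order of mice, and a library is named by its group and mouse, such as Tc0 725.

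CD8+ T cells kill infected or malignant cells with granzymes and perforin and secrete cytokines. Those named Tc22 secrete IL-22, a cytokine that acts on epithelial cells, and in T cells its production is known to draw on the aryl hydrocarbon receptor and STAT3. Coenzyme A is the carrier of acyl groups in intermediary metabolism and is built from pantothenate. Transcripts were measured here, not secreted protein.

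Libraries held 21841034 to 36254631 counts, and mitochondrial genes took 2.003% to 3.997% of them. Tc0 728 stood apart from the other Tc0 libraries: the chi-square statistic of its counts against each of them, divided by the degrees of freedom, was 239 and 141, where other pairs within a group gave 24.6 to 77.8. Summed levels of 10 defining CD8 T cell genes were 2600 to 3140 CPM (counts scaled to a common library size) in Tc0, 2110 to 2610 CPM in Tc0 + CoA and 2430 to 2960 CPM in Tc22, and Cd8a stood at 647 to 860 CPM in all libraries. Cd4 was at 0.14 to 0.633 CPM in Tc0, 0.289 to 1.15 CPM in Tc0 + CoA and 0.714 to 1.37 CPM in Tc22, higher in every Tc22 library than in Tc0 but not past the threshold (log2 fold change of both groups against Tc0 1.25, adjusted p = 0.0645). In bulk libraries a smaller share of cells with a transcript and less of it per cell cannot be told apart.

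On the mean of both groups, 434 genes rose and 374 fell against Tc0, 5.26% of those tested (2.83% and 2.44%). The test was edgeR's quasi-likelihood test with mouse as a block and Benjamini-Hochberg adjusted p below 0.05. Every fold change below is on the log2 scale, and without another label it is the mean of both groups against Tc0. The shared programme held 340 rises and 283 falls, 4.06% of genes tested (2.22% and 1.84%). The 185 other genes past the threshold had at least 1 group and mouse of opposite sign. The sign alone was the same in all 6 pairs of groups and mice for 14.3% of genes tested (6.61% higher and 7.7% lower). Just inside the threshold lay Arhgap23 (0.94, adjusted p = 0.04997), Lmo4 (-0.465, 0.04986) and Fam3c (0.40, 0.04986), and just outside Cars (0.37, 0.05025), Trim59 (-0.39, 0.05041) and Arhgef10l (2.11, 0.05045). Tc22 alone differed from Tc0 at 565 genes (3.68%; 2.48% higher and 1.21% lower) and Tc0 + CoA alone at 3763 (24.5%), against the same Tc0 libraries, which the 2 comparisons share. Of the 623 shared genes, 187 (134 rises and 53 falls) passed in each group alone, 48 in Tc22 only, 385 in Tc0 + CoA only and 3 in neither. Members of a gene list beyond the 4 with the smallest p, and genes outside the lists, were chosen for naming after their values were seen.

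The number of shared genes depended on single libraries. Without Tc0 728, 1263 genes rose and 1039 fell in the shared sense, and 529 of the 623 were among them. Without Tc0 725 there were 58 rises and 9 falls, 65 of them among the 623, and without Tc0 715 there were 190 and 164, with 263 among the 623. Leaving out Tc0 + CoA 715 gave 536 and 514, Tc0 + CoA 725 gave 241 and 157, Tc0 + CoA 728 gave 172 and 91, Tc22 715 gave 145 and 72, and Tc22 725 gave 226 and 102. When mouse was left out of the model 81 rises and 29 falls remained past the threshold.

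The median rise was 1.2 and the median fall -0.69, against -0.003 over all genes tested, and 201 rises and 72 falls reached a 2-fold change (1 on the log2 scale). Many rises were of low genes: 179 of the 340 had a mean of at least 5 CPM, against 231 of the 283 falls. Within mice 715, 725 and 728 the median rise over the Tc0 library of the same mouse was 0.99, 1.05 and 0.86 in Tc22 and 1.02, 1.54 and 1.09 in Tc0 + CoA. The median fall was -0.54, -0.64 and -0.37 in Tc22 and -0.60, -1.15 and -0.75 in Tc0 + CoA. Tc0 + CoA 725 lay farthest from its Tc0 library in both directions. Levels of all 6 libraries lay beyond all 3 Tc0 libraries for 345 shared genes (208 rises and 137 falls), as they did for 4.41% of all genes tested.

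**Figure D1:**
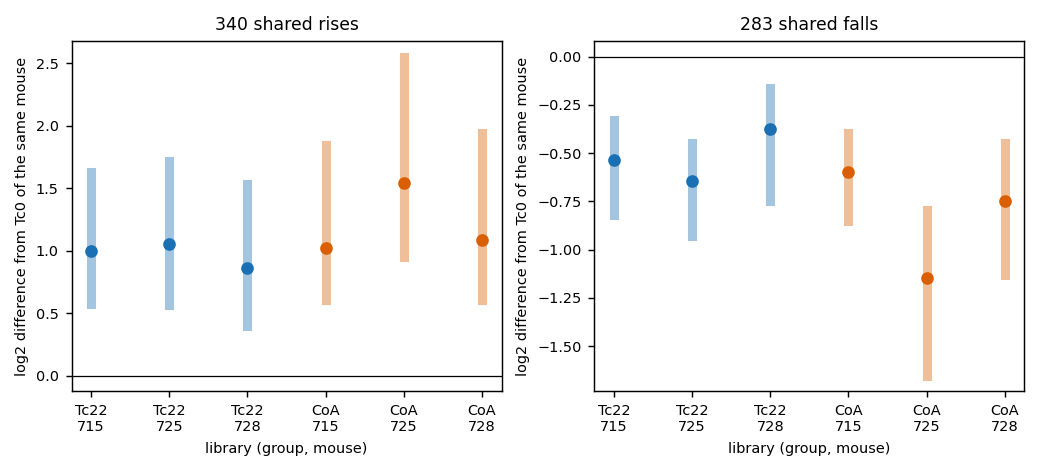
Log2 difference of each Tc22 (blue) and Tc0 + CoA (orange) library from the Tc0 library of the same mouse, over the 340 shared rises (left) and the 283 shared falls (right). Points are medians over genes and bars span the middle 50% of genes; the largest median shift is that of Tc0 + CoA of mouse 725, 1.54 for rises and -1.15 for falls.

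Among shared genes of at least 5 CPM the 12 largest rises included Il22, Upp1, Lum, Gzmc, Penk, Lmna, Ermn, Il24, Cyp11a1, Asb2 and Ifi211. Upp1 encodes uridine phosphorylase, which frees ribose 1-phosphate from uridine. It stood at 0.346, 0.56 and 0.551 CPM in Tc0, 9.83, 15.6 and 15 CPM in Tc0 + CoA and 2.14, 3.23 and 4.89 CPM in Tc22, with all 6 libraries far above the 3 Tc0 libraries (3.80, SE 0.22, adjusted p = 8e-05 by edgeR). Its fold change was 2.79 in Tc22 and 4.81 in Tc0 + CoA. The gene (ENSMUSG00000020407, chr11:9118103-9136170, plus strand) is shown with the 250 bases before its RefSeq start, since they hold 1 match to the AP-1 motif TGANTCA, as 9.51% of shared rises and 4.18% of all tested genes with such a window do. The windows of Il22 and Ermn, searched likewise, held 0 matches. Where a gene has several windows, as Upp1 has 3, the first in the RefSeq table was used throughout. Capitals mark the match, which starts 45 bases before the gene's start (build GRCm38.p6):
Upp1 (chr11:9117758-9118007, plus strand): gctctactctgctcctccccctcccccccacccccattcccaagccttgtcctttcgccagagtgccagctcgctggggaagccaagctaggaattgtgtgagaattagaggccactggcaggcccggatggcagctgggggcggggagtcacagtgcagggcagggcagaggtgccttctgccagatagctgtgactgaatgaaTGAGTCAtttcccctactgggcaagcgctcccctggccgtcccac

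Lum, the gene of the collagen-binding proteoglycan lumican, was at 1.13, 0.606 and 0.358 CPM in Tc0, 9.79, 17.6 and 4.13 CPM in Tc0 + CoA and 11.1, 4.65 and 3.77 CPM in Tc22 (3.54, SE 0.40, adjusted p = 0.00266). It is best known from stromal cells, and 8 fibroblast genes chosen after its values were seen (Col1a1, Col1a2, Col3a1, Dcn, Pdgfra, Pdgfrb, Sparc and Fn1) summed to 0.979 to 1.65 CPM in Tc0, 1.78 to 2.39 CPM in Tc0 + CoA and 1.53 to 2.14 CPM in Tc22. Ermn, the gene of the actin-binding protein ermin, stood at 2.36, 1.91 and 1.27 CPM in Tc0, 16.7, 17.8 and 9.85 CPM in Tc0 + CoA and 24.1, 15.9 and 14.3 CPM in Tc22 (3.15, SE 0.18, adjusted p = 8e-05). Its rise was close in size in both groups, 3.31 in Tc22, adjusted p = 9.24e-05, and 3.0 in Tc0 + CoA, adjusted p = 0.000112, and the direct difference was 0.30, SE 0.17, adjusted p = 0.198.

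Asb2, the gene of a substrate adaptor of a ubiquitin ligase, was at 3.37, 1.87 and 4.6 CPM in Tc0, 8.12, 16.6 and 19.2 CPM in Tc0 + CoA and 12.6, 18.2 and 23.1 CPM in Tc22 (2.25, SE 0.26, adjusted p = 0.00286). Cyp11a1, the gene of the enzyme that starts steroid synthesis from cholesterol, was at 6.67, 1.07 and 2.06 CPM in Tc0, 13.5, 6.47 and 19 CPM in Tc0 + CoA and 51.6, 14.3 and 17 CPM in Tc22 (2.71, SE 0.37, adjusted p = 0.00598). Its levels overlapped between groups, because Tc0 715 was above Tc0 + CoA 725. That each library exceeded the Tc0 library of its own mouse is set by the rule that chose shared genes. Ifi211, of the interferon-inducible p200 family, stood at 2.74, 2.52 and 1.51 CPM in Tc0, 11.4, 12.6 and 4.22 CPM in Tc0 + CoA and 7.51, 16.6 and 12.1 CPM in Tc22 (2.22, SE 0.32, adjusted p = 0.00772). Of the named rises Upp1, Lum, Penk, Lmna, Ermn, Cyp11a1, Asb2 and Ifi211, 7 stayed past the threshold whichever single library was left out. Ifi211 did not without Tc0 725 (adjusted p = 0.0683), nor Cyp11a1 without the mouse block (0.124).

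**Figure D2:**
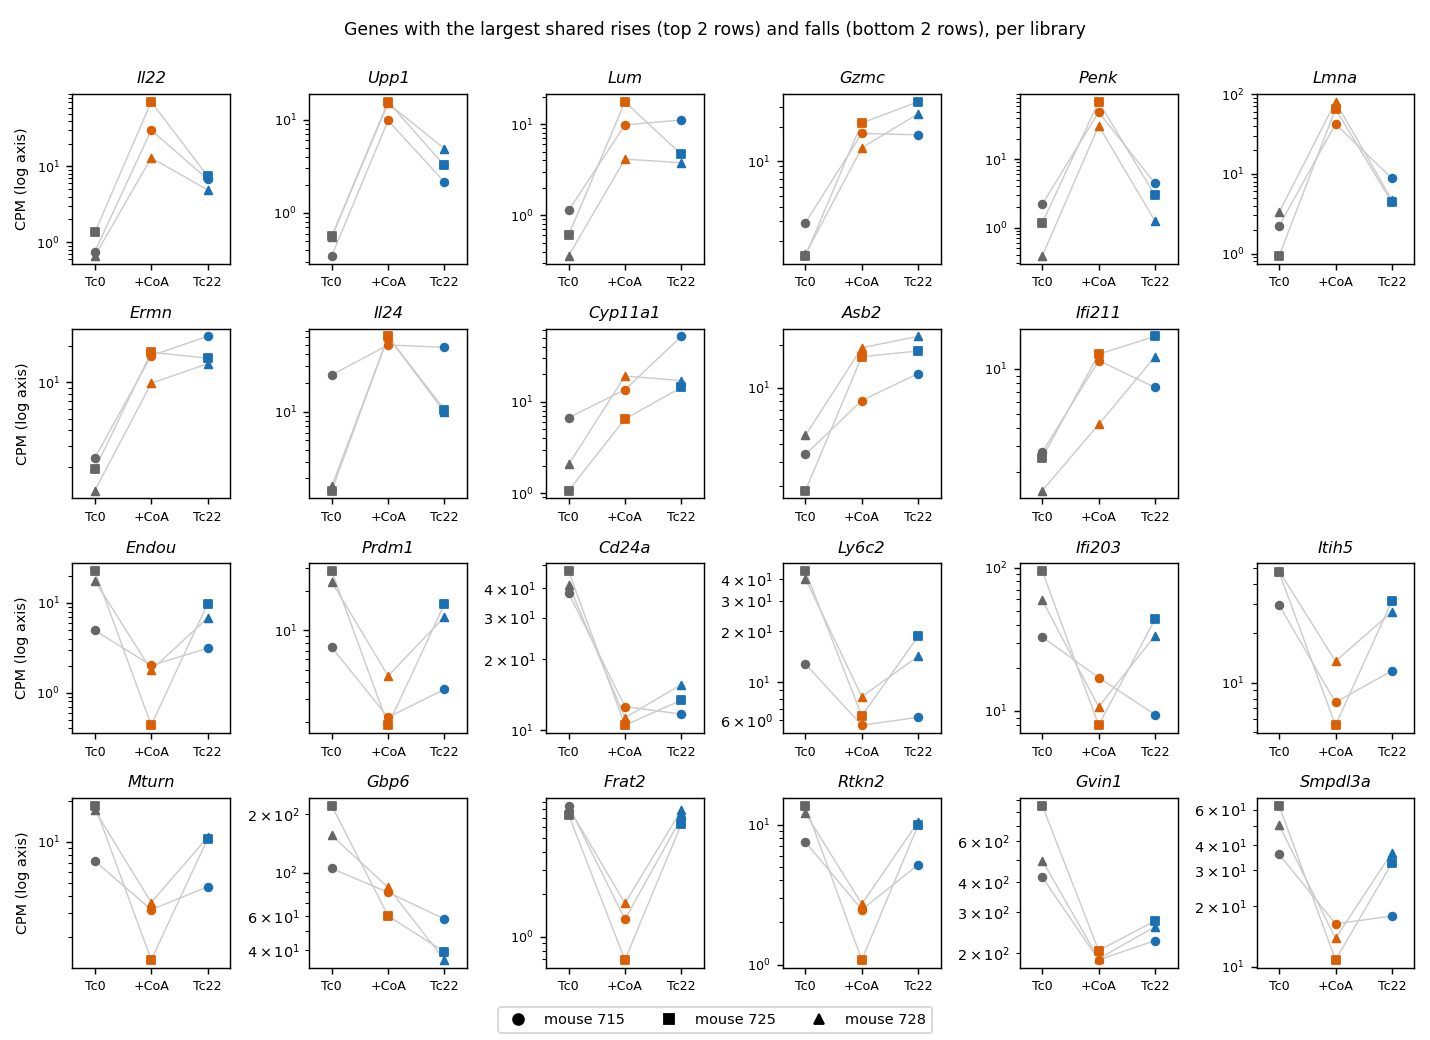
CPM (log axis) of 11 of the 12 genes with the largest shared rises (top 2 rows) and the 12 with the largest shared falls (bottom 2 rows) in Tc0, Tc0 + CoA and Tc22; each point is 1 library, shapes mark mice 715, 725 and 728 and lines join libraries of 1 mouse. By the rule that chose these genes, every line leads up from Tc0 in the top rows and down in the bottom rows. For Il24 and Cyp11a1 the Tc0 library of mouse 715 (24.3 and 6.67 CPM) lies above those of the other mice.

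Of 15 measured members of the IL-22 and type 17 list, 9 passed as shared rises, against 2.22% of all genes tested, and the other 6 did not pass on the mean. In single groups Il10 (-2.12, adjusted p = 0.00852) and Ahr passed as lower in Tc22 and Maf as lower in Tc0 + CoA (-1.32, adjusted p = 0.0195); the list's median was 1.83 (2.12 in Tc22 and 1.53 in Tc0 + CoA). Il22 (ENSMUSG00000074695, chr10:118204942-118210047, plus strand) stood at 0.755, 1.35 and 0.661 CPM in Tc0, 30.1, 71.5 and 13 CPM in Tc0 + CoA and 6.8, 7.47 and 4.92 CPM in Tc22, with no overlap (4.02, SE 0.33, adjusted p = 0.000836). The receptors that type 17 cells use to sense interleukin-1 and interleukin-23 rose in both groups. Il1r1 was at 0.0944, 0.233 and 0.0826 CPM in Tc0, 2.16, 4.59 and 1.24 CPM in Tc0 + CoA and 2.31, 1.99 and 1.76 CPM in Tc22 (4.11, SE 0.42, adjusted p = 0.0018), about level between the groups (-0.24, SE 0.32, adjusted p = 0.597 for Tc22 minus Tc0 + CoA). Il1r2, the decoy receptor of interleukin-1, was at 1.04, 0.839 and 1.1 CPM in Tc0, 4.06, 2.46 and 2.31 CPM in Tc0 + CoA and 3.88, 4.77 and 4.32 CPM in Tc22 (1.83, adjusted p = 0.00581).

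Il23r was at 0.504, 0.187 and 0.165 CPM in Tc0, 6.6, 4.95 and 1.73 CPM in Tc0 + CoA and 3.71, 1.78 and 0.863 CPM in Tc22 (3.34, SE 0.28, adjusted p = 0.000836). It stayed low in absolute level but did not overlap with Tc0. Il17a was at 0.0944, 0.28 and 0.0275 CPM in Tc0, 4.55, 11 and 3.42 CPM in Tc0 + CoA and 0.204, 1.24 and 0.384 CPM in Tc22, and its Tc22 values overlapped with Tc0 725 (3.92, SE 0.39, adjusted p = 0.00135). Il17f, its neighbour on chromosome 1, was at 0.126, 0.373 and 0.0551 CPM in Tc0, 9.49, 11 and 2.44 CPM in Tc0 + CoA and 0.476, 1.33 and 1.22 CPM in Tc22 (4.04, SE 0.60, adjusted p = 0.00853). Il17f did not pass in Tc22 alone (2.66, adjusted p = 0.0699). Il21, a growth factor of these cells, was at 0.252, 0.187 and 0 CPM in Tc0, 1.97, 3.4 and 0.533 CPM in Tc0 + CoA and 4.49, 1.48 and 1.6 CPM in Tc22 (4.01, SE 0.64, adjusted p = 0.0114).

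Il23a, the p19 subunit gene of interleukin-23 and not on the list, was at 0.0944, 0 and 0.0275 CPM in Tc0, 3, 5.46 and 1.2 CPM in Tc0 + CoA and 0.51, 0.267 and 0.128 CPM in Tc22 (4.22, adjusted p = 0.00762). It was chosen after its values were seen and did not pass in Tc22 alone (2.53, adjusted p = 0.104). Batf, a factor that type 17 differentiation needs, rose less (0.57, SE 0.12, adjusted p = 0.0287). Under 1 CPM these levels rest on few counts. Of the 9 genes Il22, Il1r1, Il1r2, Il23r, Il17a, Il17f, Il21, Batf and Il23a, 6 stayed past the threshold whichever single library was left out. Without Tc0 725, Il1r2, Il21 and Batf did not (adjusted p from 0.0505 to 0.235), and Batf was also lost without Tc0 715, Tc0 + CoA 725 or 728, or Tc22 715 or 725 (0.0536 to 0.106). Without the mouse block Il17a, Il21, Il23a, Il23r and Batf did not pass (0.0561 to 0.218).

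Ahr, which encodes the aryl hydrocarbon receptor, was not shared: it was at 10.2, 9.28 and 8.53 CPM in Tc0, 12.8, 15.9 and 11.7 CPM in Tc0 + CoA and 3.64, 3.82 and 3.77 CPM in Tc22, lower in Tc22 and higher in Tc0 + CoA than in Tc0 (log2 fold change -1.32 in Tc22, adjusted p = 0.00308, and 0.52 in Tc0 + CoA, adjusted p = 0.0381). Among 10 measured targets of that receptor, 3 passed as higher and 2 of them were shared rises, against 2.83% and 2.22% of all genes tested. Nqo1 passed as lower (-1.07) with opposite signs in the groups. Cyp1b1, a cytochrome P450, was at 0.063, 0.0933 and 0.165 CPM in Tc0, 0.266, 1.12 and 0.533 CPM in Tc0 + CoA and 3.16, 2.16 and 3.04 CPM in Tc22 (3.54, SE 0.53, adjusted p = 0.00888). Ugt1a6a, a glucuronosyltransferase of the Ugt1a cluster whose isoforms share exons, was at 0.252, 0.187 and 0.275 CPM in Tc0, 1.06, 0.904 and 0.444 CPM in Tc0 + CoA and 1.29, 1.07 and 1.22 CPM in Tc22 (1.98, SE 0.35, adjusted p = 0.0165). Cyp1a1 passed on the mean (2.42, adjusted p = 0.0353) but was lower in Tc0 + CoA 728 (0.266 CPM) than in Tc0 728 (0.275 CPM). Ahrr, the receptor's repressor, did not pass (0.61, adjusted p = 0.164). Both shared calls were lost without Tc0 725 (adjusted p = 0.0702 and 0.122), and that of Ugt1a6a also without Tc0 715 (0.0708).

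Of 17 measured effector cytokines and chemokines, 9 passed as higher, against 2.83% of all genes tested. Shared rises were 5 of them (Il24, Il2, Il3, Csf2 and Cxcl10), against 2.22% of all genes tested. Ccl3, Ccl4, Il13 and Ccl22 passed without the same sign in every pair. The list's median was 1.65 on the mean of both groups, 0.22 in Tc22 and 3.18 in Tc0 + CoA. Il24, of the interleukin-10 family like Il22, was at 24.3, 1.49 and 1.65 CPM in Tc0, 50, 61.6 and 61 CPM in Tc0 + CoA and 47.4, 10.5 and 9.94 CPM in Tc22. Tc0 715 was above the Tc22 libraries of the other mice, so the groups overlapped (2.73, SE 0.63, adjusted p = 0.0392). The same direction within each mouse is set by the rule for shared genes. Il2, the T cell growth factor, was at 0.252, 0.14 and 0.0275 CPM in Tc0, 3.99, 15 and 2.26 CPM in Tc0 + CoA and 0.476, 0.326 and 0.192 CPM in Tc22 (3.28, SE 0.57, adjusted p = 0.0153). Its log2 fold change was 1.19 in Tc22, adjusted p = 0.349, and 5.37 in Tc0 + CoA, adjusted p = 0.000773. Csf2, encoding GM-CSF, was at 0.661, 0.699 and 0.303 CPM in Tc0, 3.72, 9.22 and 3.06 CPM in Tc0 + CoA and 0.816, 0.77 and 0.703 CPM in Tc22 (1.84, adjusted p = 0.0161; 0.51 in Tc22 and 3.18 in Tc0 + CoA).

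Il3, which lies beside Csf2, was at 0.063, 0.0466 and 0 CPM in Tc0, 1.14, 3.18 and 0.488 CPM in Tc0 + CoA and 0.238, 0.0593 and 0.0639 CPM in Tc22, with 3 counts or fewer in the Tc0 libraries together, so no fold change is given. The same holds for Cxcl10, a chemokine for activated T cells, at 0, 0 and 0.0551 CPM in Tc0, 0.418, 1.52 and 0.355 CPM in Tc0 + CoA and 0.136, 0.741 and 0.288 CPM in Tc22. Lif and Osm, adjacent genes of the interleukin-6 family, rose as well. Lif was at 34.6, 15.8 and 24.8 CPM in Tc0, 75, 124 and 94.1 CPM in Tc0 + CoA and 90.6, 48 and 57.9 CPM in Tc22 (1.71, SE 0.27, adjusted p = 0.0102), with no overlap. Osm was at 28.1, 25.2 and 35 CPM in Tc0, 47.8, 53.8 and 58.8 CPM in Tc0 + CoA and 33.4, 32.1 and 36.3 CPM in Tc22 (0.54, SE 0.10, adjusted p = 0.0214), and Tc0 728 lay within the Tc22 range. Il6, a cytokine that drives type 17 differentiation, rose (1.78, adjusted p = 0.0483), with 0.59 in Tc22 and 2.98 in Tc0 + CoA. Inhba, the gene of an activin subunit, was at 0.189, 0.14 and 0.165 CPM in Tc0, 5.66, 18 and 4.88 CPM in Tc0 + CoA and 1.09, 0.474 and 0.48 CPM in Tc22 (3.76, adjusted p = 0.00772). Inhba did not pass in Tc22 alone (1.94, adjusted p = 0.142). Lif, Il6 and Inhba are outside the lists and were chosen after their values were seen.

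All 9 of these cytokine calls were lost without Tc0 725 (adjusted p from 0.0677 to 0.325). Il3 and Il6 were lost, with or without Il24 or Osm, on leaving out Tc0 715, Tc0 728, Tc0 + CoA 725 or 728, or Tc22 715 or 728 (0.0533 to 0.133), and Il24 and Osm without Tc22 725 (0.0553 and 0.0655). Il6 also missed the threshold with DESeq2's size factors (adjusted p = 0.0504) or library size alone (0.0532), and Il24 when only genes of at least 5 CPM were tested (0.056). Without the mouse block 7 of the 9 did not pass (0.0971 to 0.342). Ifng, the interferon gamma gene, was not shared: it stood at 8.59, 1.87 and 1.51 CPM in Tc0, 37.5, 43.4 and 22.9 CPM in Tc0 + CoA and 2.79, 2.64 and 1.85 CPM in Tc22 (1.42, adjusted p = 0.0551), with -0.50 in Tc22, adjusted p = 0.511, and 3.34 in Tc0 + CoA, adjusted p = 0.00181.

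NF-kB dimers are held in the cytoplasm by inhibitors of the I-kappa-B family, whose genes they switch on in turn; Nfkb2 and Relb encode the subunits of the noncanonical branch. Of 19 measured subunits and feedback inhibitors 7 passed as higher and 0 as lower, against 2.83% and 2.44% of all genes tested. Shared rises were 6, against 2.22% of all genes tested, and Tnip3 (0.66) was not shared. The list's median was 0.50 on the mean of both groups and 0.50 in each. Nfkb2 (ENSMUSG00000025225, chr19:46304320-46312385, plus strand) was at 23.3, 18.1 and 40.3 CPM in Tc0, 55.5, 78.8 and 70.2 CPM in Tc0 + CoA and 57.8, 68.8 and 72.3 CPM in Tc22, without overlap and level between the groups (1.34, SE 0.19, adjusted p = 0.00738; -0.04, SE 0.20, adjusted p = 0.891 for Tc22 minus Tc0 + CoA). Relb was at 7.93, 6.44 and 12.6 CPM in Tc0, 12, 12.2 and 14.5 CPM in Tc0 + CoA and 23.5, 31 and 34.4 CPM in Tc22, higher in Tc22 (1.14, SE 0.16, adjusted p = 0.00656; 1.19, SE 0.17, adjusted p = 0.00154). Its Tc0 + CoA libraries overlapped with Tc0 728.

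Genes of the inhibitors rose as well. Nfkbia, encoding I-kappa-B alpha, was at 29.4, 26.8 and 34.9 CPM in Tc0, 47.3, 60.4 and 41.1 CPM in Tc0 + CoA and 70.6, 102 and 111 CPM in Tc22 (1.16, SE 0.16, adjusted p = 0.00684). Nfkbie, encoding the epsilon form, was at 9.51, 8.63 and 11.6 CPM in Tc0, 17.3, 19.7 and 14.7 CPM in Tc0 + CoA and 21.7, 23.9 and 27.8 CPM in Tc22 (1.05, SE 0.15, adjusted p = 0.00772). Both were higher in Tc22 than in Tc0 + CoA (adjusted p = 0.00507 and 0.0481). Nfkbib, the beta form, was at 3.81, 3.54 and 7.82 CPM in Tc0, 9.83, 13.9 and 14.7 CPM in Tc0 + CoA and 6.39, 7.79 and 8.25 CPM in Tc22 and went the other way, higher in Tc0 + CoA (0.99, adjusted p = 0.0238; -0.77, SE 0.21, adjusted p = 0.0214). Traf1, a signalling adaptor, was at 82.2, 92.3 and 122 CPM in Tc0, 155, 145 and 142 CPM in Tc0 + CoA and 161, 143 and 153 CPM in Tc22 (0.61, SE 0.12, adjusted p = 0.0242). Rela (0.31), Rel (0.01) and Nfkb1 (-0.22) did not pass.

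The windows of 250 bases before the RefSeq starts of Nfkb2, Nfkbia and Nfkbie are printed because these subunit and inhibitor genes moved together and each window held the motif. Searched on both strands for the kappaB consensus, they held 3 (2 of them overlapping, at 39 and 38 bases before the start, and 1 at 11 bases), 1 (29 bases) and 1 (106 bases) matches. Capitals mark the matches (build GRCm38.p6):
Nfkb2 (chr19:46304487-46304736, plus strand): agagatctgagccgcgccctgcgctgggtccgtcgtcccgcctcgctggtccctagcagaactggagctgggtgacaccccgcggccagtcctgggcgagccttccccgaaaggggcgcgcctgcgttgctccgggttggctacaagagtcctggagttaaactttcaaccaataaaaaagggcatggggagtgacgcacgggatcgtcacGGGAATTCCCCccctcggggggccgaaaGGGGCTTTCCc
Nfkbia (chr12:55492648-55492897, minus strand): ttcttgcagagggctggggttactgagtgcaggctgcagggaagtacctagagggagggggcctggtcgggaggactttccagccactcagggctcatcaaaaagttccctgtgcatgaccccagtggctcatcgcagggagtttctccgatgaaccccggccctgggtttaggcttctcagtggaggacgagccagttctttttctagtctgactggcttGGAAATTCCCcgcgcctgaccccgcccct
Nfkbie (chr17:45555450-45555699, plus strand): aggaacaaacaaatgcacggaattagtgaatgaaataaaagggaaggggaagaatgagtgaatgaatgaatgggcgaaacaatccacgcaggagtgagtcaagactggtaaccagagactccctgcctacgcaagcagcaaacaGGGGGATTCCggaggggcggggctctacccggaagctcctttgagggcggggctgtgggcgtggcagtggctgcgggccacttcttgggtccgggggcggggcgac
The windows of Nfkbib and Traf1 held 0 matches, and that of Relb is not in the table used. Over the whole programme the consensus was in 22 of 263 windows of shared rises (8.37%), 10 of 202 of shared falls (4.95%) and 435 of 10107 of all tested genes (4.30%). For other motifs searched on both strands, not all of which are reported here, shares are given for windows of shared rises, shared falls and all tested genes. The STAT motif TTCNNNGAA was in 6.08%, 6.93% and 5.95%, the AP-1 motif TGANTCA in 9.51%, 5.94% and 4.18% and the cyclic AMP response element TGACGTCA in 1.52%, 1.49% and 2.77%. The xenobiotic response element core GCGTG was in 37.3%, 37.1% and 45.3%. A match describes letters in a window and is not a measured binding site.

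Nfkb2 and Relb stayed past the threshold whichever single library was left out. Nfkbia, Nfkbie, Nfkbib and Traf1 were lost without Tc0 725 (adjusted p from 0.0529 to 0.180), and Nfkbib and Traf1 also without Tc0 715 or Tc22 715 or 725 (0.0506 to 0.0867). Relb, Nfkbib and Traf1 were lost without the mouse block (0.0667 to 0.156).

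**Figure D3:**
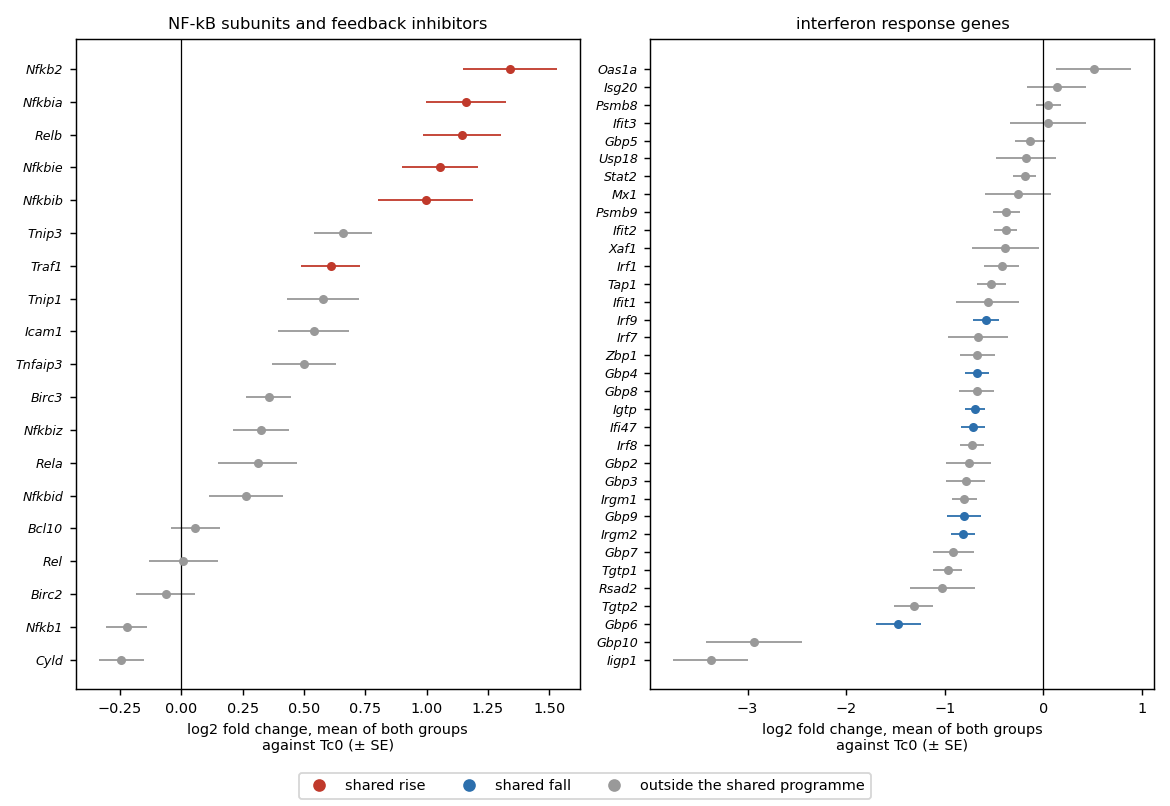
Log2 fold change (± SE) of the mean of both groups against Tc0 for the 19 measured members of the NF-kB list (left) and 34 of the 35 of the interferon response list (right); red and blue mark shared rises and falls, grey all others. The 6 shared NF-kB members lie between 0.61 and 1.34 and the 7 shared interferon members between -1.47 and -0.58.

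Among AP-1, EGR and NR4A factors 3 of 23 measured were shared rises (Batf3, Atf3 and Batf) and 1 a shared fall, against 2.22% and 1.84% of all genes tested. The groups differed in this list, with medians of -0.13 in Tc22 and 0.76 in Tc0 + CoA. In Tc22 alone 3 members passed as higher and 2 as lower, and in Tc0 + CoA alone 10 and 1. Of all genes tested 12.5% passed as higher in Tc0 + CoA. Compared directly, 15 of the 23 were higher in Tc0 + CoA and 2 in Tc22. Batf3, a partner of Jun proteins, was at 5.7, 2.75 and 6.17 CPM in Tc0, 10.9, 17.1 and 20.7 CPM in Tc0 + CoA and 18.9, 14.6 and 16 CPM in Tc22 (1.77, SE 0.26, adjusted p = 0.00777), with no overlap and level between the groups (0.03, SE 0.27, adjusted p = 0.936). Atf3, its neighbour on chromosome 1 and a stress-induced factor, was at 9.88, 4.9 and 5.42 CPM in Tc0, 21.7, 30.1 and 21 CPM in Tc0 + CoA and 15.3, 9.13 and 8.76 CPM in Tc22 (1.31, SE 0.22, adjusted p = 0.0151). Nfatc1, the calcium-responsive factor, was the fall, at 43.7, 48.8 and 71.5 CPM in Tc0, 33.8, 40.4 and 44.7 CPM in Tc0 + CoA and 35.5, 41.2 and 46.6 CPM in Tc22 (-0.42, adjusted p = 0.0421).

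Among STAT targets and SOCS inhibitors 4 of 15 measured were shared rises, against 2.22% of all genes tested. Bcl6 passed as lower (-1.24) with opposite signs in the groups. Socs3, which restrains STAT3 signalling, was at 9.47, 11.1 and 22.5 CPM in Tc0, 21.1, 25.2 and 27.3 CPM in Tc0 + CoA and 16, 24.6 and 33.2 CPM in Tc22 (0.83, SE 0.17, adjusted p = 0.0258). Tc0 728 reached the range of both groups. Bcl3, a nuclear I-kappa-B protein, was at 5.89, 4.43 and 9.61 CPM in Tc0, 9.38, 8.64 and 10.2 CPM in Tc0 + CoA and 14.2, 10.9 and 18.3 CPM in Tc22 (0.85, adjusted p = 0.0207). Osm (above) and Tnfrsf8 were the other two. Of Batf3, Atf3, Batf, Nfatc1, Socs3, Bcl3, Osm and Tnfrsf8, only Batf3 stayed past the threshold whichever single library was left out. The other 7 were lost without Tc0 725 (adjusted p from 0.0628 to 0.235), 5 without Tc0 715, 4 each without Tc22 715 or 725, 3 without Tc0 + CoA 728, 2 without Tc0 + CoA 725 and Nfatc1 without Tc0 728 or Tc22 728.

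Of 19 measured costimulators of the tumour necrosis factor (TNF) and CD28 families, 5 of the TNF family were shared rises and Cd28 was a shared fall. Shared rises were 2.22% and shared falls 1.84% of all genes tested. Tnfrsf4, encoding OX40, was at 44.5, 26.8 and 43.8 CPM in Tc0, 56, 51.8 and 68.9 CPM in Tc0 + CoA and 86.7, 63.3 and 81.8 CPM in Tc22, without overlap (0.83, SE 0.12, adjusted p = 0.00613). Tnfsf14, encoding the ligand LIGHT, was at 6.64, 4.1 and 5.4 CPM in Tc0, 12.9, 10.5 and 13.3 CPM in Tc0 + CoA and 11.1, 7.91 and 8.09 CPM in Tc22 (0.97, SE 0.15, adjusted p = 0.00856). Tnfrsf25, encoding death receptor 3, was at 0.976, 0.653 and 0.853 CPM in Tc0, 1.1, 1.52 and 1.91 CPM in Tc0 + CoA and 2.75, 2.37 and 3.55 CPM in Tc22 (1.31, adjusted p = 0.0194). Tnfrsf9, encoding 4-1BB (0.44, adjusted p = 0.0375), and Tnfrsf18, encoding GITR (0.69, adjusted p = 0.0427), rose less.

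Tnfrsf8, encoding CD30 and counted among the STAT targets, was at 63.9, 52.6 and 54.3 CPM in Tc0, 102, 188 and 149 CPM in Tc0 + CoA and 159, 140 and 113 CPM in Tc22 (1.3, SE 0.18, adjusted p = 0.00712), and all 6 libraries lay above Tc0. Cd28 was at 297, 463 and 320 CPM in Tc0, 197, 175 and 194 CPM in Tc0 + CoA and 239, 328 and 293 CPM in Tc22 (-0.61, SE 0.13, adjusted p = 0.0308). Its log2 fold change was -0.32 in Tc22, adjusted p = 0.259, and -0.90 in Tc0 + CoA, adjusted p = 0.00496. All 7 of these calls were lost without Tc0 725 (adjusted p from 0.0547 to 0.328). Cd28, Tnfrsf9 and Tnfrsf18 were also lost without Tc0 715, Tc0 + CoA 728 or Tc22 715 or 725, Tnfrsf25 without Tc0 + CoA 728 or Tc22 715, and Tnfrsf18 without Tc0 + CoA 725 (0.0507 to 0.143).

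Gzmc, Gzmd and Gzme, of the granzyme cluster on chromosome 14, rose, and Gzmk fell. Of 18 measured cytotoxic granule and death ligand genes, 6 passed as higher and 3 as lower, against 2.83% and 2.44% of all genes tested. They held 5 shared rises and 2 shared falls, against 2.22% and 1.84% of all genes tested. Crtam (0.62) and Fasl (-1.32) were not shared. The list's median was -0.04 in Tc22 and 0.58 in Tc0 + CoA. In Tc22 alone 4 members passed as higher and 5 as lower, and in Tc0 + CoA alone 10 and 3. Of all genes tested 1.21% passed as lower in Tc22 and 12.5% as higher in Tc0 + CoA. Compared directly, 7 members were higher in Tc0 + CoA and 2 in Tc22. Gzmc was at 2.9, 1.49 and 1.54 CPM in Tc0, 17.5, 21.6 and 13.1 CPM in Tc0 + CoA and 17, 33.1 and 26 CPM in Tc22, all 6 far above Tc0 (3.37, SE 0.30, adjusted p = 0.00115). Gzmd was at 0.0944, 0.187 and 0 CPM in Tc0, 0.911, 0.832 and 0.71 CPM in Tc0 + CoA and 1.5, 2.37 and 1.41 CPM in Tc22 (3.81, SE 0.51, adjusted p = 0.00581). Gzme was at 0.126, 0.0466 and 0.0551 CPM in Tc0, 0.683, 0.615 and 0.444 CPM in Tc0 + CoA and 0.51, 1.1 and 0.735 CPM in Tc22 (3.0, adjusted p = 0.0117). These genes are close copies, and reads may have been split between them. Gzmb, their most studied member, was not shared: it stood at 2230, 2230 and 1820 CPM in Tc0, 3260, 4060 and 3620 CPM in Tc0 + CoA and 1550, 2120 and 1750 CPM in Tc22 (log2 fold change -0.22 in Tc22, adjusted p = 0.317, and 0.80 in Tc0 + CoA, adjusted p = 0.00353).

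Prf1, encoding perforin, was at 12.9, 12.5 and 15.2 CPM in Tc0, 19.4, 21.7 and 21.9 CPM in Tc0 + CoA and 17.6, 20.5 and 19.3 CPM in Tc22 (0.57, SE 0.11, adjusted p = 0.0266), and all 6 libraries lay above Tc0. Srgn, the gene of the core protein of a granule proteoglycan, was at 169, 211 and 166 CPM in Tc0, 213, 273 and 209 CPM in Tc0 + CoA and 298, 272 and 300 CPM in Tc22 (0.51, adjusted p = 0.0314). Gzmk, a granzyme of memory-like cells, was at 0.378, 4.66 and 2.62 CPM in Tc0, 0.114, 0.0723 and 0.222 CPM in Tc0 + CoA and 0.204, 0.77 and 0.576 CPM in Tc22, with Tc0 715 well below the other Tc0 libraries and within the Tc22 range (-3.06, SE 0.41, adjusted p = 0.00558). Tnfsf10, encoding the death ligand TRAIL, was at 31.9, 36 and 26.3 CPM in Tc0, 22.1, 16.7 and 20.6 CPM in Tc0 + CoA and 13.6, 15.7 and 14.5 CPM in Tc22, without overlap (-0.88, SE 0.13, adjusted p = 0.00952). Gzmc and Gzmd kept their calls whichever single library was left out. Gzme, Gzmk, Prf1, Srgn and Tnfsf10 lost theirs without Tc0 725 (adjusted p from 0.0779 to 0.240), Prf1 and Srgn also without Tc0 715, Tc0 + CoA 728 or Tc22 715, Srgn without Tc0 + CoA 725 and Prf1 without Tc22 725 (0.0582 to 0.100).

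The 12 largest falls of at least 5 CPM were Endou, Prdm1, Cd24a, Ly6c2, Ifi203, Itih5, Mturn, Gbp6, Frat2, Rtkn2, Gvin1 and Smpdl3a. Cd24a, encoding the small surface glycoprotein CD24 (ENSMUSG00000047139, chr10:43578284-43584265, plus strand), was at 38.1, 47.2 and 41.3 CPM in Tc0, 12.6, 10.5 and 11.3 CPM in Tc0 + CoA and 11.7, 13.4 and 15.6 CPM in Tc22. It was low in all 6 libraries, without overlap and at close levels in both groups (-1.76, SE 0.12, adjusted p = 0.000378; 0.23, SE 0.15, adjusted p = 0.265). Gvin1, a very large interferon-inducible GTPase gene with near-identical neighbours, was at 421, 851 and 496 CPM in Tc0, 187, 205 and 189 CPM in Tc0 + CoA and 226, 274 and 259 CPM in Tc22 (-1.36, SE 0.14, adjusted p = 0.00158). Ly6c2, encoding the effector and memory marker Ly6C, was at 12.8, 44.7 and 40.3 CPM in Tc0, 5.62, 6.36 and 8.26 CPM in Tc0 + CoA and 6.25, 18.6 and 14.2 CPM in Tc22 (-1.69, SE 0.21, adjusted p = 0.00467). Its Tc0 715 was below Tc22 725 and 728, so groups overlapped across mice.

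Prdm1, encoding the effector factor Blimp-1, was at 7.43, 28.5 and 23.6 CPM in Tc0, 2.16, 1.88 and 4.48 CPM in Tc0 + CoA and 3.54, 15.9 and 12.7 CPM in Tc22, again with Tc0 715 the lowest Tc0 library (-1.77, SE 0.28, adjusted p = 0.0114). Its log2 fold change was -0.91 in Tc22, adjusted p = 0.17, and -2.64 in Tc0 + CoA, adjusted p = 0.00266. Smpdl3a, a phosphodiesterase gene, was at 36, 62.8 and 50.2 CPM in Tc0, 16.3, 10.8 and 13.8 CPM in Tc0 + CoA and 17.8, 32.5 and 36.7 CPM in Tc22 (-1.3, adjusted p = 0.0126). Itih5, of the inter-alpha-trypsin inhibitor family, was at 29.7, 47.1 and 48 CPM in Tc0, 7.59, 5.5 and 13.5 CPM in Tc0 + CoA and 11.8, 31.4 and 27 CPM in Tc22 (-1.55, adjusted p = 0.00859). The falls of Endou (-2.14), Mturn (-1.49), Rtkn2 (-1.38) and Ifi203 (-1.65) had adjusted p from 0.0238 to 0.0431, and each estimate was larger in Tc0 + CoA than in Tc22. Of these 12, Cd24a, Frat2 and Gvin1 kept their calls whichever single library was left out. The other 9 were lost without Tc0 725 (adjusted p from 0.0505 to 0.339), and up to 4 of Endou, Ifi203, Mturn and Rtkn2 without Tc0 715, Tc0 728, Tc0 + CoA 728 or Tc22 715 or 725 (0.0502 to 0.105).

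Of 35 measured interferon response genes 15 passed as lower on the mean and 0 as higher, and 7 of the 15 were shared falls. Of all genes tested 2.44% passed as lower and 1.84% were shared falls. The list's median was -0.67 (-0.66 in Tc22 and -0.56 in Tc0 + CoA). The shared falls were mostly GTPases that interferon gamma induces against pathogens inside cells. Gbp6 was at 105, 220 and 155 CPM in Tc0, 79.3, 60 and 84 CPM in Tc0 + CoA and 57.9, 39.4 and 35.8 CPM in Tc22, without overlap (-1.47, SE 0.23, adjusted p = 0.0106). Irgm2 was at 51, 101 and 75.2 CPM in Tc0, 39.7, 48.5 and 46.3 CPM in Tc0 + CoA and 36.2, 41.6 and 39.5 CPM in Tc22 (-0.81, SE 0.12, adjusted p = 0.0095). Igtp was at 252, 386 and 336 CPM in Tc0, 224, 259 and 261 CPM in Tc0 + CoA and 159, 166 and 152 CPM in Tc22 (-0.69, SE 0.10, adjusted p = 0.00853). Their annotated spans overlap on chromosome 11, so reads may be shared. Ifi47 (-0.72, adjusted p = 0.0153), Gbp4 (-0.67, adjusted p = 0.0194), Gbp9 (-0.81, adjusted p = 0.0342) and Irf9, a subunit of the interferon-stimulated factor (-0.58, adjusted p = 0.0375), completed them. Many of these have close copies between which reads may be split.

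Tc0 715 held the lowest Tc0 level of Gbp6, Irgm2, Igtp, Ifi47, Gbp4, Gbp9 and Irf9. Summed over the measured members the list stood at 1920 to 3800 CPM in Tc0, 1850 to 2340 CPM in Tc0 + CoA and 1670 to 1880 CPM in Tc22. Iigp1 passed on the mean (-3.37, adjusted p = 0.00266) but was higher in Tc0 + CoA 715 (11.3 CPM) than in Tc0 715 (8.12 CPM). Nlrc5, the activator of class I antigen presentation genes, was at 132, 180 and 217 CPM in Tc0, 115, 91.2 and 118 CPM in Tc0 + CoA and 69.8, 77 and 78.5 CPM in Tc22, without overlap (-0.95, SE 0.12, adjusted p = 0.00547), and the nonclassical class I genes H2-T22 (-0.52, adjusted p = 0.0324) and H2-T24 (-0.96, adjusted p = 0.0227) fell; these 3 were chosen with their values in view.

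The windows before Irgm2 and Igtp are printed because each held 1 match to the interferon-stimulated response element core, a pair of GAAA words with any 2 bases between them, searched on both strands, 64 and 34 bases before the RefSeq start. The core was in 13 of 202 windows of shared falls (6.44%), 9 of 263 of shared rises (3.42%) and 276 of 10107 of all tested genes (2.73%). Capitals mark the match (build GRCm38.p6):
Irgm2 (chr11:58214727-58214976, plus strand): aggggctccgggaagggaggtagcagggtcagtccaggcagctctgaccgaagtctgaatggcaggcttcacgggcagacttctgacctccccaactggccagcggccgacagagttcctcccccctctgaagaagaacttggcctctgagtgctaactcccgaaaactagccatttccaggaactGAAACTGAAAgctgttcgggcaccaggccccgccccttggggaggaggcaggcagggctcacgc
Igtp (chr11:58199306-58199555, plus strand): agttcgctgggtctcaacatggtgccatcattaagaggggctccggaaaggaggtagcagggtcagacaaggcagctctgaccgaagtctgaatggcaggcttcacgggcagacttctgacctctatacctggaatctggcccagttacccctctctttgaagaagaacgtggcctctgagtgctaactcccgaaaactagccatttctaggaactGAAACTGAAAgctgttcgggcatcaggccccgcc
All 10 shared calls of these interferon and class I genes were lost without Tc0 725 (adjusted p from 0.0529 to 0.341). Irf9 was also lost without Tc0 728, Tc0 + CoA 725 or 728, or any 1 Tc22 library, Gbp9 without Tc0 728, Tc0 + CoA 728 or Tc22 715 or 725, H2-T22 without Tc0 728, Tc0 + CoA 728 or Tc22 715, and H2-T24 without Tc0 + CoA 728 or Tc22 715 (0.0523 to 0.0885).

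The adjacent Ifitm1, Ifitm2 and Ifitm3 on chromosome 7, encoding interferon-inducible membrane proteins that restrict virus entry, were shared rises, chosen after their values were seen. Ifitm2 was at 6.89, 3.78 and 6.14 CPM in Tc0, 8.43, 10.2 and 12.6 CPM in Tc0 + CoA and 28.6, 21.7 and 27.5 CPM in Tc22, highest in Tc22 (1.56, SE 0.18, adjusted p = 0.00301). Ifitm1 was at 2.01, 1.59 and 1.93 CPM in Tc0, 2.96, 4.09 and 2.89 CPM in Tc0 + CoA and 8.77, 9.04 and 6.81 CPM in Tc22 (1.47, adjusted p = 0.00547). Ifitm3 was at 0.283, 0.699 and 0.688 CPM in Tc0, 1.37, 2.64 and 1.6 CPM in Tc0 + CoA and 0.952, 1.78 and 1.31 CPM in Tc22 (1.5, adjusted p = 0.0141). Ifitm3 was lost without Tc0 715 or 725 (adjusted p = 0.0519 and 0.121), while Ifitm1 and Ifitm2 kept their calls whichever single library was left out.

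Among 25 measured effector and memory transcription factors 3 passed as higher and 6 as lower, of which 2 were shared rises and 3 shared falls. Over all genes tested these shares were 2.83%, 2.44%, 2.22% and 1.84%. Bhlhe40 (0.49), Id3 (-0.79) and Runx1 (-0.97) passed without the same sign in every pair, as did Eomes. Satb1, a chromatin organiser of T cells, was at 290, 297 and 251 CPM in Tc0, 454, 519 and 389 CPM in Tc0 + CoA and 537, 440 and 480 CPM in Tc22, without overlap (0.75, SE 0.11, adjusted p = 0.00762). Zeb2, of terminal effector cells, was at 6.45, 3.87 and 2.84 CPM in Tc0, 12, 21.7 and 11 CPM in Tc0 + CoA and 7.65, 4.86 and 4.44 CPM in Tc22 (1.09, adjusted p = 0.0424; 0.39 in Tc22 and 1.80 in Tc0 + CoA). Tox, a factor of exhausted cells, was at 22.2, 17.1 and 16.3 CPM in Tc0, 11.8, 8.43 and 8.61 CPM in Tc0 + CoA and 12.5, 10.5 and 12.8 CPM in Tc22, without overlap (-0.79, SE 0.12, adjusted p = 0.0107). Ikzf3, encoding Aiolos (-0.59, adjusted p = 0.0451), and Prdm1 fell too. Foxp1, a factor of quiescent T cells chosen after its values were seen, was at 171, 174 and 161 CPM in Tc0, 161, 160 and 153 CPM in Tc0 + CoA and 62.1, 77.7 and 79.8 CPM in Tc22; its log2 fold change was -1.21 in Tc22, adjusted p = 0.000777, and -0.09 in Tc0 + CoA, adjusted p = 0.57. Bcl11b, of T cell identity and chosen likewise, was at 144, 179 and 154 CPM in Tc0, 117, 102 and 99.7 CPM in Tc0 + CoA and 133, 131 and 132 CPM in Tc22 (-0.42, adjusted p = 0.0375).

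Eomes went opposite ways and was not shared, at 17.8, 28.4 and 17.7 CPM in Tc0, 37.4, 48 and 39.4 CPM in Tc0 + CoA and 3.33, 5.96 and 3.74 CPM in Tc22 (log2 fold change -2.29 in Tc22, adjusted p = 0.000119, and 1.0 in Tc0 + CoA, adjusted p = 0.0023). The shared calls of Satb1, Zeb2, Prdm1, Tox, Ikzf3, Foxp1 and Bcl11b were all lost without Tc0 725 (adjusted p from 0.0653 to 0.389). Zeb2, Ikzf3 and Bcl11b were also lost without Tc0 + CoA 728 or Tc22 715 or 728, Ikzf3 and Bcl11b without Tc0 + CoA 725 or Tc22 725, Ikzf3 and Zeb2 without Tc0 728 and Tox without Tc0 715 (0.05 to 0.117).

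Several inhibitory receptors and ectoenzymes fell, and the receptor gene Klrc1 rose. Of 19 measured members 4 were shared falls and 1 a shared rise, against 1.84% and 2.22% of all genes tested. Klrc1, encoding NKG2A, was at 16.4, 10.1 and 4.9 CPM in Tc0, 96.8, 74.9 and 46.4 CPM in Tc0 + CoA and 36.6, 21.2 and 17.4 CPM in Tc22, without overlap (2.11, SE 0.15, adjusted p = 0.000382). Cd38, an enzyme that consumes NAD, was at 24.6, 21.7 and 21 CPM in Tc0, 15.8, 11.6 and 14.7 CPM in Tc0 + CoA and 5.74, 8.24 and 9.3 CPM in Tc22 (-1.11, SE 0.16, adjusted p = 0.00818). Ctla4, the checkpoint receptor gene, was at 254, 426 and 358 CPM in Tc0, 153, 71.6 and 172 CPM in Tc0 + CoA and 116, 205 and 212 CPM in Tc22 (-1.18, SE 0.26, adjusted p = 0.0342). In Cd38 and Ctla4 all 6 libraries lay below Tc0.

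Entpd1 and Nt5e encode CD39 and CD73, which degrade extracellular ATP to adenosine in sequence. Entpd1 was at 4.03, 11.8 and 11.7 CPM in Tc0, 3, 2.71 and 4.57 CPM in Tc0 + CoA and 3.81, 5.07 and 5.76 CPM in Tc22 (-1.08, adjusted p = 0.0326). Nt5e was at 10.1, 11.9 and 9 CPM in Tc0, 3.95, 2.71 and 3.2 CPM in Tc0 + CoA and 5.17, 8.83 and 8.28 CPM in Tc22 (-1.06, adjusted p = 0.0207). Pdcd1 (0.24), Lag3 (0.26), Havcr2 (-0.87) and Tigit (0.27) were not past the threshold (adjusted p from 0.0587 to 0.545). The neighbouring receptor genes Lilr4b and Lilrb4a, outside the list and chosen after their values were seen, rose. Lilr4b was at 11.9, 11.6 and 8.37 CPM in Tc0, 18.3, 20.9 and 13.5 CPM in Tc0 + CoA and 53, 46 and 50.5 CPM in Tc22 (1.49, adjusted p = 0.00125). Lilrb4a was at 22, 12.6 and 10.4 CPM in Tc0, 25.4, 26.3 and 18 CPM in Tc0 + CoA and 70.1, 47.3 and 52.3 CPM in Tc22 (1.32, adjusted p = 0.00422). They are close copies, and reads may have been split between them. Klrc1, Lilr4b and Lilrb4a kept their calls whichever single library was left out. Cd38, Ctla4, Entpd1 and Nt5e lost theirs without Tc0 725 (adjusted p from 0.0713 to 0.302), Ctla4 and Nt5e without Tc0 715, Ctla4, Entpd1 and Nt5e without Tc0 + CoA 728, Ctla4 and Entpd1 without Tc22 715, and Entpd1 without Tc0 728 or Tc22 725 or 728 (0.0501 to 0.0789).

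Of 24 measured genes of the T cell receptor pathway 3 passed as lower and 0 as higher, against 2.44% and 2.83% of all genes tested. Shared falls were 2, against 1.84% of all genes tested. The kinase gene Fyn and the phosphatase gene Ptpn22 were shared falls, and Cblb (-0.50) was not. Fyn was at 131, 133 and 138 CPM in Tc0, 106, 102 and 116 CPM in Tc0 + CoA and 89.5, 104 and 107 CPM in Tc22 (-0.37, adjusted p = 0.0344). Ptpn22 was at 250, 329 and 275 CPM in Tc0, 174, 131 and 188 CPM in Tc0 + CoA and 213, 227 and 227 CPM in Tc22 (-0.58, adjusted p = 0.0364). Of 13 measured MAP kinase phosphatase and Sprouty genes 1 was a shared fall and 1 a shared rise, against 1.84% and 2.22% of all genes tested. Dusp6, an ERK phosphatase, was at 28.8, 30.2 and 28.5 CPM in Tc0, 11.7, 10.7 and 14.7 CPM in Tc0 + CoA and 15, 20.8 and 18.8 CPM in Tc22, without overlap (-0.97, SE 0.13, adjusted p = 0.00586). Spry2, another ERK pathway brake, rose from low levels, at 0.818, 0.653 and 0.964 CPM in Tc0, 1.59, 1.19 and 1.46 CPM in Tc0 + CoA and 3.26, 2.34 and 1.66 CPM in Tc22 (1.16, adjusted p = 0.0373). Outside the lists, the Ras activators Rasgrp1 (-0.76, adjusted p = 0.0209) and Rasgrp2 (-0.95, adjusted p = 0.0368) and the adaptor Lax1 (-0.68, adjusted p = 0.0375) fell, chosen after their values were seen.

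All 8 of these calls, Nfatc1 included, were lost without Tc0 725 (adjusted p from 0.0547 to 0.324). Tc0 715 or 728, Tc0 + CoA 725 or 728 and Tc22 715, 725 or 728 each ended 3 to 7 of them when left out (0.0502 to 0.140), and Dusp6 depended on Tc0 725 alone.

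Cytokine receptors and homing genes held 1 shared gene each: Il6st fell among 24 measured receptors and Itgb1 among 22 measured homing genes. With shared falls at 1.84% of all genes tested, 1 member in a list of this size does not set it apart. Il27ra (0.50), Ccr4 (0.66) and Cxcr3 (-0.90) were among those that passed without the same sign in every pair. Il6st, encoding gp130, was at 69.8, 142 and 152 CPM in Tc0, 56.4, 46.9 and 63.4 CPM in Tc0 + CoA and 57, 90.1 and 108 CPM in Tc22 (-0.77, adjusted p = 0.0367). Itgb1, encoding integrin beta 1, was at 272, 280 and 184 CPM in Tc0, 172, 211 and 167 CPM in Tc0 + CoA and 151, 151 and 138 CPM in Tc22 (-0.56, adjusted p = 0.0206). Chosen after their values were seen, the gut homing receptor Gpr15 fell (-1.10, adjusted p = 0.0238) and the leukotriene receptor Cysltr1 rose (1.40, adjusted p = 0.022). All 4 were lost without Tc0 725 (adjusted p from 0.0903 to 0.313), Itgb1 and Il6st also without Tc22 715 or 725, Itgb1 without Tc0 715, Il6st without Tc0 728 or Tc0 + CoA 728, Cysltr1 without Tc22 715 and Gpr15 without Tc22 725 (0.0543 to 0.0917).

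Of shared falls outside the lists, 4 more are given that were chosen after their values were seen and stand for no list. Bcl2l11, encoding the cell death protein Bim, was at 33.8, 58.1 and 57.8 CPM in Tc0, 20.5, 8.68 and 20.2 CPM in Tc0 + CoA and 20.4, 36.6 and 38.5 CPM in Tc22 (-1.11, adjusted p = 0.0444). Bmf, a relative, was at 4.03, 8.11 and 13 CPM in Tc0, 3.42, 2.97 and 3.55 CPM in Tc0 + CoA and 2.18, 4.03 and 6.46 CPM in Tc22 (-1.07, adjusted p = 0.0373). Trp53inp1, a p53 target, was at 706, 604 and 442 CPM in Tc0, 300, 168 and 226 CPM in Tc0 + CoA and 437, 362 and 373 CPM in Tc22, without overlap (-0.96, SE 0.13, adjusted p = 0.00641). Pdcd4, a translation inhibitor, was at 227, 184 and 149 CPM in Tc0, 143, 87.7 and 108 CPM in Tc0 + CoA and 127, 112 and 124 CPM in Tc22 (-0.67, adjusted p = 0.0161). Each of the 4, and Tnfsf10, was lost without Tc0 725 (adjusted p from 0.0653 to 0.358). Bcl2l11 and Bmf were also lost without Tc0 728, Tc0 + CoA 728 or Tc22 715 or 725, Bcl2l11 and Pdcd4 without Tc0 715, Bmf without Tc0 + CoA 725 and Bcl2l11 without Tc22 728 (0.0563 to 0.0994).

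In 6 lists of core metabolism 0 members passed on the mean of both groups by edgeR. They held 18 coenzyme A genes (3 at an unadjusted p below 0.05, 0 by DESeq2), 23 of glycolysis (7 and 1), 30 of pyruvate entry and the TCA cycle (2 and 1), 41 nuclear-encoded (6 and 2) and 13 mitochondrially encoded (3 and 1) respiratory chain genes, and 30 of sterol and fatty acid synthesis (10 and 4). Coasy, encoding the bifunctional enzyme that completes coenzyme A, was at 14.6, 14.5 and 22.5 CPM in Tc0, 17.3, 15.4 and 24.2 CPM in Tc0 + CoA and 22.2, 20.6 and 22.2 CPM in Tc22 (0.26, SE 0.13, adjusted p = 0.254). The members with the smallest p were Acly (0.31, adjusted p = 0.12), Hk2 (0.46, 0.0512), Pdp1 (-0.46, 0.057), Cox4i1 (0.42, 0.103), mt-Atp8 (0.40, 0.102) and Hmgcs1 (-0.38, 0.075). Medians of the 6 lists lay between -0.03 and 0.15. In some of them the groups moved apart. The sterol and fatty acid synthesis median was 0.098 in Tc22 and -0.145 in Tc0 + CoA. Compared directly, 10 of its 30 genes were higher in Tc22 and 0 in Tc0 + CoA. The glycolysis median was 0.39 in Tc22 and -0.14 in Tc0 + CoA, where 8 members passed as lower and 2 as higher. When the groups were compared directly, 17 of 23 were higher in Tc22 and 3 in Tc0 + CoA. The mitochondrially encoded median was -0.31 in Tc22 and 0.62 in Tc0 + CoA, where 7 members passed as higher, and 12 of 13 were higher in Tc0 + CoA in the direct comparison.

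Some single enzymes did change. The 1 shared fall among 24 measured fatty acid oxidation genes stands beside 1.84% of all genes tested. Cpt1a, which admits long-chain fatty acids to mitochondria, was the shared fall among 24 measured fatty acid oxidation genes, at 62.1, 63.1 and 68.2 CPM in Tc0, 38.5, 26.4 and 35.7 CPM in Tc0 + CoA and 55.8, 56.7 and 57.4 CPM in Tc22, without overlap (-0.57, SE 0.11, adjusted p = 0.022); most of it was in Tc0 + CoA (-0.18 in Tc22 and -0.95 in Tc0 + CoA). Pparg, a lipid-sensing nuclear receptor, was at 3.02, 3.73 and 2.2 CPM in Tc0, 7.17, 13.5 and 9.76 CPM in Tc0 + CoA and 7.58, 9.01 and 7.45 CPM in Tc22, without overlap (1.60, SE 0.19, adjusted p = 0.00286). Slc2a6, a hexose transporter of lysosomes, was at 1.98, 1.63 and 3.03 CPM in Tc0, 5.2, 7.78 and 6.35 CPM in Tc0 + CoA and 9.79, 9.13 and 11.6 CPM in Tc22 (1.87, SE 0.21, adjusted p = 0.00266). Dgat1, of triglyceride synthesis, rose mainly in Tc22 (0.85, adjusted p = 0.00581; 1.42 in Tc22 and 0.29 in Tc0 + CoA). Mgll, which splits monoglycerides (1.61, adjusted p = 0.0392), and Fah, of tyrosine breakdown (0.99, adjusted p = 0.0238), also rose. Pparg, Slc2a6, Dgat1, Mgll and Fah were chosen after their values were seen.

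Pparg and Slc2a6 kept their calls whichever single library was left out. Cpt1a, Dgat1, Mgll and Fah lost theirs without Tc0 725 (adjusted p from 0.0505 to 0.311), Mgll and Fah without Tc0 715, Cpt1a without Tc0 + CoA 728 or Tc22 715, and Mgll without Tc0 + CoA 725 or any 1 Tc22 library (0.0543 to 0.0929).

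The theta class glutathione transferase genes Gstt1, Gstt2 and Gstt3 rose with Ddt, all on chromosome 10 and chosen after their values were seen; the 3 are paralogs that may share reads. Gstt1 was at 11.6, 4.99 and 7.16 CPM in Tc0, 12.5, 8.9 and 17.2 CPM in Tc0 + CoA and 43.8, 30.2 and 42.3 CPM in Tc22, highest in Tc22 (1.53, SE 0.19, adjusted p = 0.00364). Gstt2 was at 32.9, 21.8 and 43 CPM in Tc0, 58.5, 51.3 and 67.7 CPM in Tc0 + CoA and 98.7, 59.2 and 69.9 CPM in Tc22 (1.07, adjusted p = 0.00777). Gstt3 was at 8, 5.55 and 6.11 CPM in Tc0, 12.6, 12.9 and 13.8 CPM in Tc0 + CoA and 18.3, 12.6 and 13.9 CPM in Tc22 (1.10, adjusted p = 0.00586), both without overlap. Ddt, encoding a relative of macrophage migration inhibitory factor, was at 15, 10.4 and 29.1 CPM in Tc0, 33, 35.6 and 48.8 CPM in Tc0 + CoA and 46.4, 34.3 and 44 CPM in Tc22 (1.24, adjusted p = 0.0114). Of 22 measured oxidative stress and iron storage genes 2 passed as higher and 2 as lower, against 2.83% and 2.44% of all genes tested. Of these, 1 each was shared, against 2.22% and 1.84% of all genes tested. They were Srxn1, which repairs peroxiredoxins (1.02, adjusted p = 0.0153), and Gclm, of glutathione synthesis (-0.48, adjusted p = 0.0413). Gstt1 kept its call whichever single library was left out. The other 5 lost theirs without Tc0 725 (adjusted p from 0.0545 to 0.311), Gclm and Srxn1 without Tc0 715, and Gclm without Tc0 + CoA 725 or any 1 Tc22 library (0.0546 to 0.172).

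Of 30 measured cell cycle genes 3 passed as higher and 2 were shared rises: Cdkn1a, encoding the inhibitor p21 (0.69, adjusted p = 0.0456), and Ccnd1, encoding cyclin D1, at 0.661, 0.606 and 0.826 CPM in Tc0, 2.7, 2.93 and 2.13 CPM in Tc0 + CoA and 0.918, 0.859 and 0.863 CPM in Tc22 (1.09, adjusted p = 0.0347). Of 24 ribosome biogenesis genes 3 passed as higher, and Pes1 was the shared rise (0.47, adjusted p = 0.0241). Of 23 hypoxia response genes Narf was the shared fall (-0.69, adjusted p = 0.0337). On the mean of both groups the shares over all genes tested were 2.83% higher, 2.22% shared rises and 1.84% shared falls. In the ribosome and hypoxia lists the groups moved apart. Of the ribosome genes 23 passed as higher in Tc0 + CoA and 0 in Tc22 (medians 0.75 and -0.06). Of the hypoxia genes 12 passed as lower in Tc0 + CoA and 3 as higher in Tc22 (medians -0.59 and 0.35), and 21 were higher in Tc22 in the direct comparison. In the integrated stress response list the cystine transporter gene Slc7a11 passed (1.23, adjusted p = 0.0114) but was lower in Tc22 725 than in Tc0 725. All 4 shared calls were lost without Tc0 725 (adjusted p from 0.230 to 0.341) and also without Tc0 + CoA 728 or Tc22 715 or 725. Ccnd1, Narf and Pes1 were lost without Tc0 715, Ccnd1 and Cdkn1a without Tc0 + CoA 725, and Cdkn1a without Tc0 728 or Tc22 728 (0.0502 to 0.117).

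**Figure D4:**
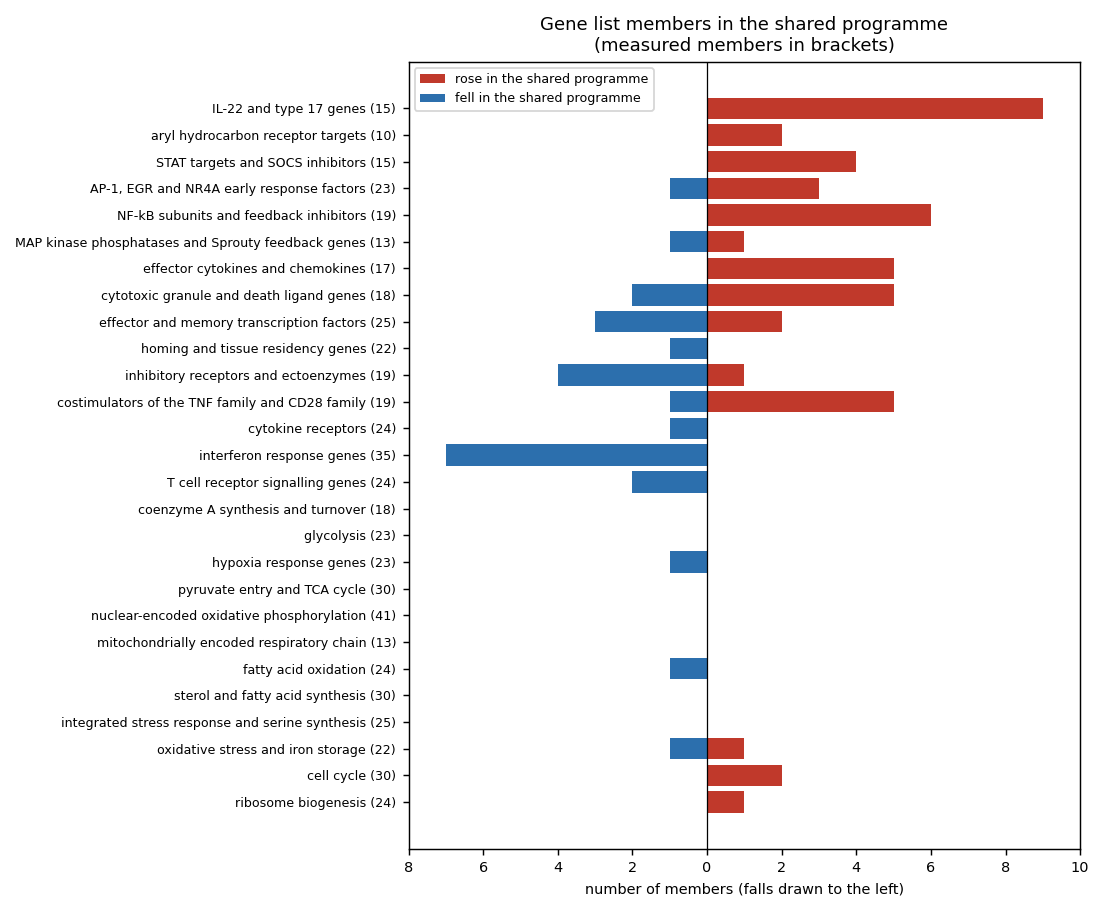
Number of measured members of 27 gene lists that were shared rises (red, to the right) or shared falls (blue, to the left), with the number measured in brackets. The IL-22 and type 17 list holds the most rises (9 of 15) and the interferon response list the most falls (7 of 35), while the coenzyme A, glycolysis and TCA cycle lists hold 0.

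The size of a shared change often differed between Tc22 and Tc0 + CoA. Tested directly, in a contrast without Tc0, 262 of the 623 genes differed between the 2 groups (42.1%, against 32.0% of all genes tested). Of 162 rises that differed, 119 were higher in Tc0 + CoA and 43 in Tc22. Of 100 falls that differed, 87 were higher in Tc22 and 13 in Tc0 + CoA. For the other 361 the test did not pass, which does not show that they were equal.

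Among shared genes of at least 5 CPM the rises with the most excess in Tc0 + CoA were Penk, Lmna, Anxa3, Il22 and Il24. Genes of lower level described above differed as much or more, among them Il2 (-4.18), Inhba (-3.64), Il17a (-3.46) and Il23a (-3.37). Penk, encoding the precursor of enkephalins, was at 2.2, 1.17 and 0.385 CPM in Tc0, 49.1, 69.6 and 30.9 CPM in Tc0 + CoA and 4.45, 2.96 and 1.25 CPM in Tc22, and Tc22 minus Tc0 + CoA was -4.23, SE 0.29, adjusted p = 0.000126. Lmna, encoding lamins A and C, was at 2.23, 0.933 and 3.28 CPM in Tc0, 42, 65.1 and 80.2 CPM in Tc0 + CoA and 8.77, 4.39 and 4.7 CPM in Tc22 (-3.41, SE 0.37, adjusted p = 0.000471). Anxa3, encoding annexin A3, was at 10.6, 1.12 and 1.46 CPM in Tc0, 28.1, 21.5 and 18.2 CPM in Tc0 + CoA and 19.7, 1.87 and 2.85 CPM in Tc22 (-2.32, SE 0.50, adjusted p = 0.00738). Tc0 715 stood apart from the other Tc0 libraries in Anxa3, as in Il24. For Il22 the difference was -2.31, SE 0.30, adjusted p = 0.000959. In Tc22 against Tc0 Penk, Lmna, Anxa3 and Il24 did not pass (adjusted p = 0.0765, 0.0765, 0.35 and 0.182), while Il22 did (0.003).

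Among shared genes of at least 5 CPM, Tc22 exceeded Tc0 + CoA most in the rises Igfbp4 and Adam8 and in the falls Frat2, Endou and Rtkn2. Of lower genes, Cyp1b1 differed by 2.16 (adjusted p = 0.00531). Igfbp4, encoding a binding protein of insulin-like growth factors, was at 11.7, 8.77 and 13.9 CPM in Tc0, 12.1, 14.2 and 17.4 CPM in Tc0 + CoA and 63.9, 61.2 and 86.7 CPM in Tc22 (2.27, SE 0.14, adjusted p = 9.23e-05). Adam8, encoding a membrane protease, was at 10.3, 15.4 and 22.4 CPM in Tc0, 12.1, 16.7 and 24.8 CPM in Tc0 + CoA and 46.2, 77.6 and 76.4 CPM in Tc22 (1.93, SE 0.14, adjusted p = 0.000126). In Tc0 + CoA against Tc0 neither passed (Igfbp4 0.35, adjusted p = 0.0881, and Adam8 0.17, adjusted p = 0.422). Frat2, which promotes Wnt signalling, was at 8.5, 7.32 and 8.26 CPM in Tc0, 1.33, 0.687 and 1.73 CPM in Tc0 + CoA and 6.97, 6.28 and 7.9 CPM in Tc22. Rtkn2, which binds small GTPases, was at 7.52, 13.7 and 12.1 CPM in Tc0, 2.47, 1.08 and 2.71 CPM in Tc0 + CoA and 5.17, 9.96 and 10.5 CPM in Tc22. These 2 falls lay almost wholly in Tc0 + CoA (-0.19 in Tc22 and -2.73 in Tc0 + CoA for Frat2, -0.39 in Tc22 and -2.37 in Tc0 + CoA for Rtkn2), and neither passed in Tc22 alone (adjusted p = 0.611 and 0.48). On the mean of both groups Anxa3, Endou, Il24 and Rtkn2 lost their calls without Tc0 725 (adjusted p from 0.213 to 0.277), Tc0 + CoA 728 or Tc22 715, Anxa3, Endou and Il24 without Tc0 728, Endou and Il24 without Tc22 725 and Anxa3 without Tc0 715 (0.0516 to 0.123).

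**Figure D5:**
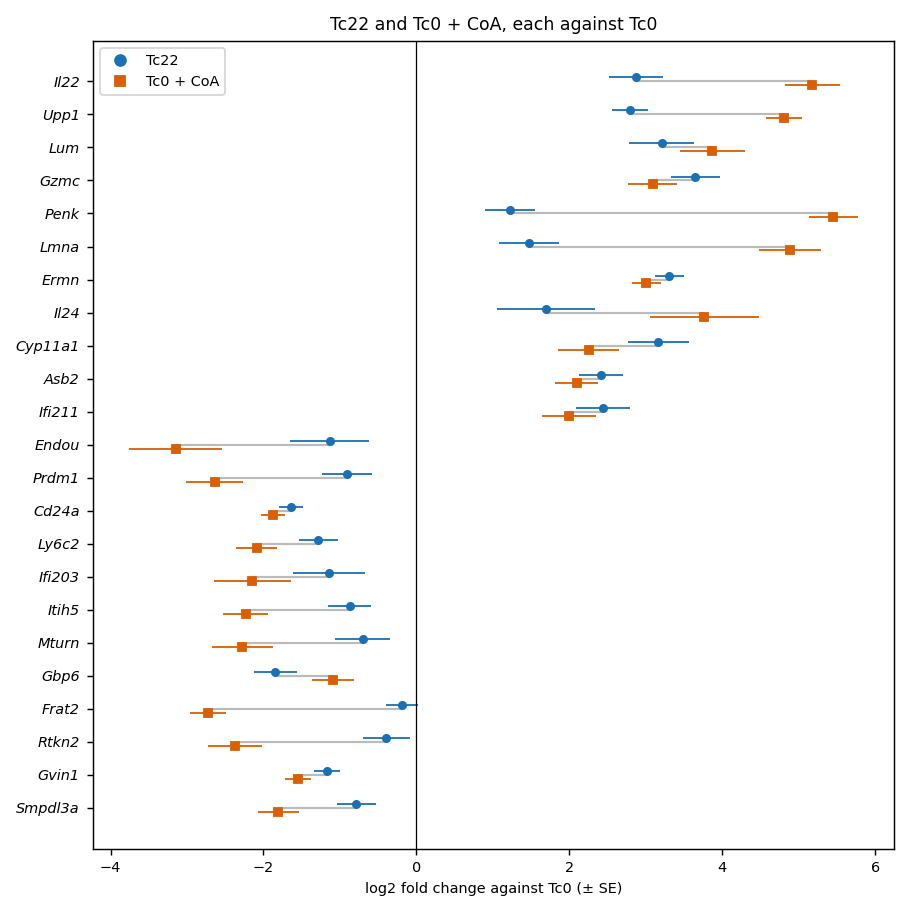
Log2 fold change against Tc0 (± SE) of Tc22 (blue circles) and Tc0 + CoA (orange squares), each from its own contrast over the same 3 Tc0 libraries, for 11 of the 12 largest shared rises and the 12 largest shared falls. The widest gap is that of Penk (1.22 in Tc22 and 5.45 in Tc0 + CoA), and Ermn, Asb2, Cd24a and Gvin1 lie close in both groups.

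Markers of other cell types bear on these bulk values. Passing refers here to the mean of both groups unless a single group or the direct comparison is named. Among 8 B cell genes, which summed to 153 to 427 CPM in Tc0, 169 to 246 CPM in Tc0 + CoA and 106 to 337 CPM in Tc22 and were mostly Ighm, 1 of 4 measured passed. It was Cd74, the class II invariant chain gene, at 4.34, 3.22 and 4.68 CPM in Tc0, 25.7, 27.7 and 21 CPM in Tc0 + CoA and 10.5, 16.8 and 14.5 CPM in Tc22 (2.16, SE 0.20, adjusted p = 0.00123). The defining genes Ms4a1, Cd79a and Pax5 stood at 0 to 0.976 CPM in all libraries. The 7 dendritic cell genes, of which 0 of 5 measured passed, summed to 5.60 to 6.42 CPM in Tc0, 8.21 to 13.2 CPM in Tc0 + CoA and 7.26 to 8.03 CPM in Tc22, with Siglech at 0 and H2-Aa close to the threshold (0.78, adjusted p = 0.0551). The 8 macrophage genes, of which 0 of 6 measured passed, summed to 5.13 to 8.37, 5.69 to 16.0 and 7.31 to 8.95 CPM. Mrc1 did not pass (1.77, adjusted p = 0.0653). In Tc0 + CoA alone 2 macrophage and 2 dendritic cell genes passed as higher, against 12.5% of all genes tested. Compared directly, 3 macrophage genes and 1 dendritic cell gene were higher in Tc0 + CoA. In Tc22 1 macrophage gene was higher, against 16.0% of all genes tested each way. The 9 granulocyte and mast cell genes summed to 0.441 to 1.26, 2.28 to 5.75 and 0.272 to 1.42 CPM, with S100a9 and Elane at 0, and 1 of 3 measured passed. It was Mcpt8, which lies in the granzyme cluster, a shared rise (2.05, adjusted p = 0.0308). In Tc0 + CoA alone 2 of the 3 passed as higher, and 3 were higher there than in Tc22 when compared directly. Mean levels in Tc0 and Tc0 + CoA were 0.463 and 1.15 CPM for Cpa3 and 0.0105 and 0.927 CPM for Prss34. They were 0.0822 and 0.407 CPM for Fcer1a and 0.0155 and 0.391 CPM for Ms4a2, while S100a8 and Mpo stayed at 0 to 0.145 CPM in all libraries.

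The 6 genes of CD4 and regulatory T cells summed to 19.0 to 28.2 CPM in Tc0, 41.8 to 48.1 CPM in Tc0 + CoA and 25.3 to 33.7 CPM in Tc22, with Ikzf4, encoding Eos, a shared rise at 7.43, 4.85 and 7.85 CPM in Tc0, 12.9, 19.4 and 15.6 CPM in Tc0 + CoA and 14, 8.71 and 9.34 CPM in Tc22 (0.96, adjusted p = 0.0408). Foxp3 stayed at 0.193 to 0.606 CPM. Gamma delta T cell genes summed to 136 to 187, 102 to 129 and 132 to 162 CPM, and Tcrg-C2 had the smallest p among them (-0.39, adjusted p = 0.148). Erythroid genes summed to 0.289 to 0.799 CPM in all libraries. Natural killer genes summed to 19.4 to 31.0, 39.4 to 50.4 and 7.68 to 11.7 CPM, of which Eomes was 17.7 to 28.4, 37.4 to 48.0 and 3.33 to 5.96 CPM. Of the 10 CD8 T cell genes, 0 passed by edgeR on the mean of both groups (5 at an unadjusted p below 0.05, 2 by DESeq2), with Cd3e nearest (-0.41, adjusted p = 0.0584). In Tc0 + CoA alone 5 of the 10 passed as lower and 0 as higher, where 1848 of 15348 genes tested passed as lower. In Tc22 alone 0 passed in either direction. Compared directly, 5 were higher in Tc22 and 1 in Tc0 + CoA, against 16.0% of all genes tested each way. The part of other cell types in these results was not tested.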

How the data were processed

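RNA of CD8+ T cells of 3 mice was sequenced as 9 libraries, 1 of each group from each mouse, made with a TruSeq Stranded Total RNA kit after Ribo-Zero depletion, per the labels' protocols. The deposited values are whole-number counts per gene for 53679 Ensembl genes, per the file headers and values, and the 9 single-library files hold the same counts as the combined table. Tools and builds listed in the submitters' processing notes are STAR 2.5.2, RSEM 1.3.0, GRCm38 and mm10. Neither the strand setting of the counting nor any rounding is given in the sources used here, so overlapping and antisense genes may share reads.

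The counts were fitted with edgeR 4.0.16 (R 4.3.3, limma 3.58.1) by the quasi-likelihood F test, with TMM scaling, filterByExpr by group (15348 genes kept), and group and mouse as terms (4 residual degrees of freedom, biological coefficient of variation 0.158). The contrast was the mean of Tc22 and Tc0 + CoA minus Tc0, with Benjamini-Hochberg adjustment of p across the 15348 genes. Tc22, Tc0 + CoA and their direct difference were contrasts of the same fit. Shown levels are TMM-scaled CPM, which are not scaled to gene length and so are not compared between genes. The mouse numbers pair libraries, per the series' design text, and the correlation of same-mouse deviations was 0.0699 to 0.617 over 9 pairs. Between libraries of different mice it was -0.527 to 0.228, so the ranges overlap. Tc0 + CoA 725 correlated with Tc0 725 at 0.178 and with Tc0 715 at 0.228. Its correlation with Tc22 725 was 0.0699 and with Tc22 715 it was 0.122.

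The members and the gene lists were chosen with earlier results of these data known. Named genes were the 12 largest shared rises and falls with a mean of at least 5 CPM, up to 4 shared members of each list by p (or the smallest p where none was shared), the 5 shared genes of at least 5 CPM with the largest direct difference in each direction, and Il22, Il17a, Ifng, Ahr, Eomes, Gzmb and Coasy. Others were named after their values were seen, and some genes that the rule names are not reported here. Alternatives were no mouse block, DESeq2 1.42.0, other scalings and filters, both groups fitted as 1, and leaving out each library or mouse. On simulated counts for 15102 genes with 9 libraries the fit of this contrast recovered 100% of the 4-fold changes that were tested. It recovered 88% of 2-fold rises and 91.8% of 2-fold falls, with 9 false calls of 195. The simulation gave both groups the same change and all genes the same coefficient of variation, with no library standing apart. Recovery was counted without the sign rule. It therefore does not cover genes that differ between the groups, or the dependence on single libraries seen here. Promoter windows (the first listed of each gene) and gene starts are from RefSeq (GRCm38.p6) and gene positions from GENCODE for GRCm38; 10107 of the tested genes had a window. Coordinates count from 1.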

Additional observations from a re-analysis of the deposited data

Results flagged for a closer look

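In 10 genes of the shared programme named for it, the change from Tc0 differed in size between Tc22 and Tc0 + CoA when the difference itself was tested (edgeR's quasi-likelihood test, Tc22 minus Tc0 + CoA on the log2 scale). The values were -4.23 for Penk, -3.41 for Lmna, -2.32 for Anxa3, -2.31 for Il22 and -2.07 for Il24, and 2.54 for Frat2, 2.27 for Igfbp4, 2.01 for Endou, 1.98 for Rtkn2 and 1.93 for Adam8. Adjusted p-values ran from 9.23e-05 for Igfbp4 to 0.0318 for Il24. Penk, Lmna, Anxa3, Il24, Frat2 and Rtkn2 did not pass in Tc22 against Tc0, nor Igfbp4 and Adam8 in Tc0 + CoA against Tc0. The 10 genes are the 5 most unequal in each direction among shared genes of at least 5 CPM that passed. Their sizes are therefore extremes by choice, and genes of lower level such as Il2 (-4.18) differed as much or more.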

How the results depend on the processing

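Counts of genes moved with the fit. On the mean of both groups 434 genes rose and 374 fell. Without the replicate block these became 87 and 35, with DESeq2 828 and 694, with no low-count filter 897 and 968, at a mean of at least 5 CPM 174 and 160, and with both groups fitted as 1 group of 6 libraries 3 and 1. Leaving out 1 library or 1 mouse gave 59 to 1338 and 11 to 1094. For the 340 shared rises and 283 shared falls the counts were 81 and 29 without the block, 143 and 123 at a mean of at least 5 CPM, 3 and 1 with 1 group of 6, 134 and 53 when each group had to pass alone, and 58 to 1263 and 9 to 1039 on leaving out 1 library or mouse. Shared falls were 429 by DESeq2 and 551 with no filter.

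For Tc22 against Tc0 (380 and 185) the counts were 87 and 33 without the block, 627 and 335 by DESeq2, 831 and 444 with no filter, 209 and 101 at a mean of at least 5 CPM, and 148 to 1555 and 53 to 1114 on leaving out 1 library or mouse. For Tc0 + CoA against Tc0 (1915 and 1848) they were 800 and 662 without the block and 468 to 2360 and 342 to 1996 on leaving out 1 library or mouse. For Tc22 against Tc0 + CoA (2456 and 2457) they were 1017 and 1080 without the block and 980 to 2935 and 868 to 2978 on leaving out 1 library or mouse. The stricter filter tests fewer genes. Leaving out a library moved counts in both directions, and the cause of these and the other shifts was not tested.

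Of 136 named shared genes 133 lost their call with 1 group of 6, 101 without Tc0 725 and 89 without the replicate block. Ermn and Cd24a kept it in all 19 alternatives and Il1r1 in the 18 that tested it. Library size alone ended the calls of Il6, Tnfrsf18, Nfatc1, Ikzf3, Bcl2l11, Ifi203 and Tlr6, DESeq2's size factors those of Il6 and Tlr6, and DESeq2 that of Ifi203. Testing only genes of at least 5 CPM ended 22 such calls (adjusted p from 0.05 to 0.0618). Eomes was the exception in direction among all named genes, at 0.13 (adjusted p = 0.967) with 1 group of 6. The median of all genes moved by less than 0.1 under every scaling. Levels below 1 CPM rest on few counts, and 3 mice limit how small a change could be called.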

Other observations

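Shared genes that are next to each other in the annotation and moved the same way formed 57 runs of 131 genes, 28 of higher and 29 of lower genes, and 11 runs held 3 or more. The longest held 6 genes on chromosome 17 (51736187 to 51833290): Satb1 and 5 noncoding or predicted neighbours, among them E430014B02Rik and 5830444F18Rik, whose reads may not be separable from those of Satb1. Rcbtb2, Rb1, Lpar6 and Itm2b formed a run of lower genes on chromosome 14 (73123037 to 73385289). Others held Ifitm2, Ifitm1, Ifitm3 and B4galnt4 (higher, chromosome 7) and Mcpt8, Gzme and Gzmd (higher, chromosome 14). How often such runs arise among any 623 genes was not tested.

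Outside the shared programme, 67 genes passed in each group alone with opposite signs, 41 of them higher in Tc22 and lower in Tc0 + CoA than in Tc0 and 26 the reverse, Eomes and Ahr among them. Another 1574 genes had the same sign in all 6 pairs without passing the test on the mean.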
